A study of Mus musculus with 18 samples.

Results

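The subject here is a list of 38 imprinted genes, read on 18 single-colour Affymetrix arrays of mouse embryonic stem (ES) cells. The members were chosen by symbol from the array annotation, 23 of them paternally expressed, 14 maternally expressed and Gnas of both kinds. These are textbook classes, not measured in these cells. Several of the maternally expressed members are so in placenta only. Grb10 is paternally expressed in brain, and Inpp5f is classed by a variant transcript. The list was selected with measured differences of these same arrays already known, so its membership is not independent of the values below. Of the 38 genes, 35 had at least 1 probe set of their own, out of 18194 genes on the array, and these took 91 of its 45101 probe sets. Another 8 probe sets were annotated to a member together with a second symbol and were kept apart. H19 was read only by such a probe set, annotated to both Mir675 and H19, and Dio3 and Zrsr1 were not matched by any symbol. After a filter on dim signal, which asked that at least 2 arrays reach 100 units, 29 members were tested. Airn, Asb4, Nap1l5, Osbpl5, Usp29 and Zim1 were too dim for the test, the brightest reading among them being 110 units, for Nap1l5.

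The cells were of the AB1 line, wild type or Cyp26a1-/-, called knockout below. Cyp26a1 encodes a cytochrome P450 that oxidises and so inactivates RA (retinoic acid), a hormone-like form of vitamin A under which ES cells differentiate. Each genotype had 3 arrays of control cells at 8 h, 3 of cells given 100 nM RA for 8 h and 2 of cells given 100 nM RA for 72 h, all in medium with LIF, a cytokine (leukemia inhibitory factor) under which mouse ES cells stay undifferentiated. A further array of each genotype came from control cells at 8 h without LIF. Every RA group was set against the 8 h control of its genotype, since no 72 h control was analysed, so time in culture and RA cannot be told apart at 72 h. The labels do not say whether the knockout cells were 1 clone or several, nor whether replicates were separate cultures, so the p-values rest on a spread among arrays that may be purely technical.

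Imprinted genes are expressed from the maternal or the paternal copy according to DNA methylation that is set in the germ line and kept after fertilisation. They lie in clusters governed by imprinting control regions, and many of the paternally expressed genes promote fetal growth while several maternally expressed ones restrain it. ES cells in culture are known to lose or gain imprints. The arrays measured total transcript and did not separate the parental copies, so nothing below is a measure of imprinting itself. In such bulk samples, fewer cells of a type and less RNA per cell cannot be told apart.

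The promoters of the members that best show the patterns below are printed first, as 250 bases upstream of the annotated start from RefSeq on GRCm38.p6, with CpG dinucleotides, the sites of DNA methylation, in capitals. Meg3 and Nnat are shown because both read high on the same wild-type arrays. Dlk1, the paternally expressed neighbour of Meg3, had the strongest call for a genotype difference at 72 h. Peg3 was called higher at 72 h in wild type, a call that rests on 1 array, and was not called in the knockout. Ndn was lower in the knockout with and without 8 h of RA.
Meg3: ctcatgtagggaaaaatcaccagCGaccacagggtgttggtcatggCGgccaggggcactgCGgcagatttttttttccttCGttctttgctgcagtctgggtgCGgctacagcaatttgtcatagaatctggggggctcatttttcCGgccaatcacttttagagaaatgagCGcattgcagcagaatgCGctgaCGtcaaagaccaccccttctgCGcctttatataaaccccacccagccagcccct
Nnat: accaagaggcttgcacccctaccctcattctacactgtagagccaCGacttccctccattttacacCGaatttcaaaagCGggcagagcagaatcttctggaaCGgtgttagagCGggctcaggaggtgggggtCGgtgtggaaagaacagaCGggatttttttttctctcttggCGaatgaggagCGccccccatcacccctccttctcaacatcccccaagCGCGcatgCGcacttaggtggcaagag
Dlk1: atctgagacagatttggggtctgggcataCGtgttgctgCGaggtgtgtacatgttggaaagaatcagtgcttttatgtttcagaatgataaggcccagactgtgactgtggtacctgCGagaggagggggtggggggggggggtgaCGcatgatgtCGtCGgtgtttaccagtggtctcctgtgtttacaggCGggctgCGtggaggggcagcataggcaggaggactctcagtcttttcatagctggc
Peg3: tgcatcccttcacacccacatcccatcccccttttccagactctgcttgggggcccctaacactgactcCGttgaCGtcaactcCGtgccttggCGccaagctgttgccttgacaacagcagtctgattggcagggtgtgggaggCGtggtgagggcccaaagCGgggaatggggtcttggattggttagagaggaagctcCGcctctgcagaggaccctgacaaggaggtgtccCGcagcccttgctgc
Ndn: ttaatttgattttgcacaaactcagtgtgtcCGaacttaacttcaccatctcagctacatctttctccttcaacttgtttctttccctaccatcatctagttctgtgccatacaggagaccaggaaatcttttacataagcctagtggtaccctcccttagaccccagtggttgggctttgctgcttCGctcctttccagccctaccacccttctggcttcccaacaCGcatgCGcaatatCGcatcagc
The Meg3 stretch lies at chr12:109540746-109540995 on the plus strand and holds 10 CpGs. The Nnat stretch, at chr2:157559828-157560077 on the plus strand, holds 12. Those of Dlk1 at chr12:109452573-109452822 on the plus strand, and of Peg3 at chr7:6730420-6730669 on the minus strand, hold 8 each. Ndn has 5 in chr7:62348027-62348276 on the plus strand. Over the 34 members with a promoter used here the median was 10 CpGs, against 6 over 27025 genes with a quartile range of 2 to 16. No promoter of Impact, Sgce, Peg10 or H19 was used. Impact was left out by its chromosome, 18, a rule not applied to the 27025 genes. The hexamer TGCCGC, the core of the motif bound by ZFP57, a zinc finger protein that protects imprints, was sought on both strands. It occurred in 6 of the 34 member promoters, the one of Meg3 among those printed, and in 8.57% of all promoters of the same length. AGGTCA, a receptor-binding hexamer that RA receptors recognise in pairs, was in 3 of the 34, none of them printed, and in 13.8% of all. These are matches of letters and not sites shown to be bound.

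Signals are MAS5 intensity units after rescaling, and values under 50 units were set to 50 for every difference. A difference is a log2 difference ± its standard error from limma, over 11388 genes tested, and "rose", "fell" and "called" are used where the adjusted p was under 0.05. ES cell markers were bright throughout, with 7 of 7 measured and summed signals of 71617 to 92565 units in controls, 75910 to 97771 after 8 h of RA and 57498 to 83747 at 72 h. Cyp26a1 itself read 637 to 1695 units in wild-type and 193 to 216 units in knockout cells after 8 h of RA, but 2873 to 3402 units in both at 72 h. Whether its probe set covers the disrupted part is not given in the sources used here, so it checks nothing. Socs3, a LIF-induced gene, read low on the first control array of each genotype, which is labelled as having LIF (367 units in wild type, 215 in the knockout), and high on the LIF-free arrays (3800 and 4551 units). Calls that change when these labels are exchanged are named below.

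One wild-type array in each group stood apart for maternally expressed RNAs of the Dlk1-Meg3 cluster. Meg3, a long noncoding RNA, read 72.1, 1930 and 81.2 units on the wild-type control arrays. After 8 h of RA it read 11.8, 816 and 16.3 units, and at 72 h 49.4 and 2018 units. The second array of each group was the high one, and every other array, knockout and LIF-free ones included, read at most 103 units. Of the 11 Meg3 probe sets, 4 exceeded 3 times the reading of every other array on all 3 of those arrays. Rian, another noncoding RNA of the same cluster and not a member, followed with 477, 324 and 670 units there and at most 45.6 units elsewhere.

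Nnat, a paternally expressed gene for a small membrane proteolipid, read 57.7, 224 and 4.08 units in wild-type controls. It read 14.8, 263 and 36.3 units after 8 h of RA, then 37.0 and 509 units at 72 h. The same 3 arrays were again the high ones, and the knockout read at most 41.7 units. Among the 11388 tested genes, 5 were at least 4-fold above the other arrays of their group on all 3 of these arrays, namely Meg3, Rian, Rhox5, Fam120c and Gm364. Fam120c differed from the others in the knockout, where it read 412 to 610 units on the replicated arrays, close to the 406 to 574 units of these 3 arrays and above the 39.0 to 101 units of the other replicated wild-type arrays. Each other choice of 1 array per group in either genotype gave 0 such genes. Rhox5, an X-linked homeobox gene, read 2910, 3346 and 3172 units on them and 72.5 to 628 units elsewhere. Dppa3, whose product protects maternal methylation, read 453, 385 and 142 units on them and 30.4 to 130 units elsewhere. Titles give a replicate number for the 72 h array only, and the others are numbered in accession order, so the labels do not tie these 3 arrays to one another. With such spread Meg3 was called in no comparison, its difference between the controls, knockout minus wild type, being -2.03 ± 1.35 with a limma adjusted p of 0.536.

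**Figure D1:**
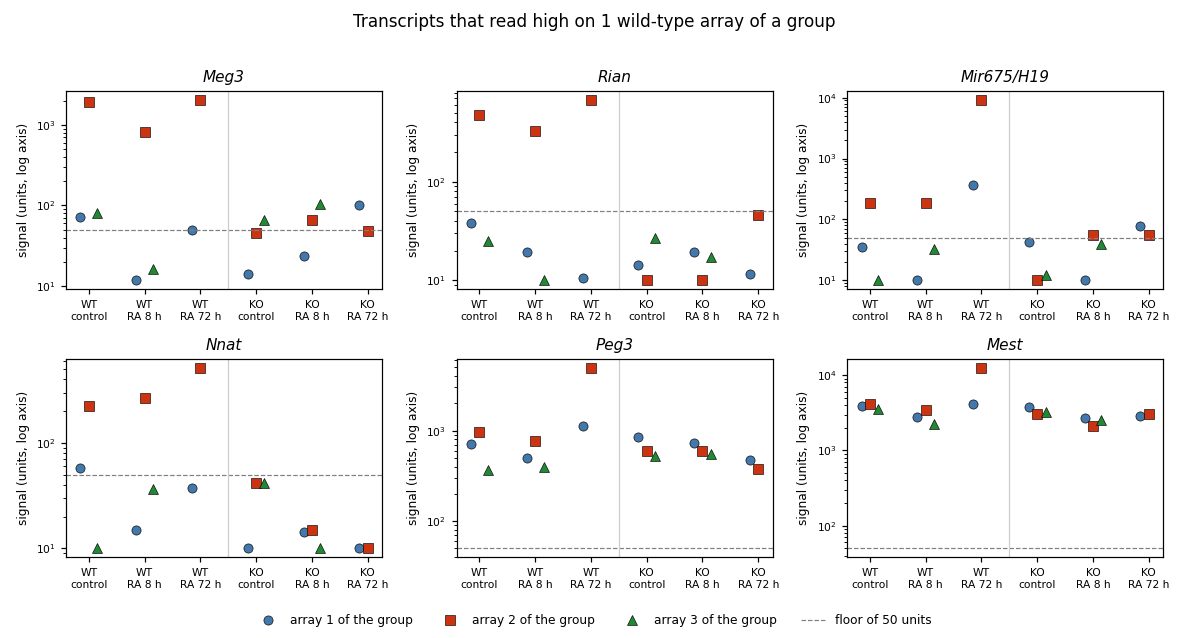
Signal of 6 transcripts on each array (log axis, intensity units; points under 10 units are drawn at 10), by genotype and treatment, with the second array of each group as a red square and the floor of 50 units dashed. For Meg3, Rian and Nnat the red squares of all 3 wild-type groups lie above every other point. For Peg3, Mest and the Mir675/H19 probe set the farthest point is the second wild-type array at 72 h, with 4885, 12357 and 9050 units. The Mir675/H19 probe set is also highest on the second wild-type array among controls and after 8 h of RA.

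At 8 h, RA moved none of the 29 tested members past the threshold in either genotype. The unadjusted p was under 0.05 for 4 of 29 in wild type and for 4 in the knockout. The share of all genes at that unadjusted threshold is not given here, so these counts say nothing particular about the members. By adjusted p, limma called 0.904% of all genes tested in wild type and 0.957% in the knockout. The members' median difference was -0.09 in wild type and -0.04 in the knockout, against 0.00 over all genes in both. With the replicate number as a block, 1 member was called in each genotype, against 2.41% and 3.0% of all genes. These were Slc38a4, an amino acid transporter, at 0.48 ± 0.10 in wild type (limma adjusted p = 0.0239), and Cd81, a tetraspanin, at -0.38 ± 0.09 in the knockout (adjusted p = 0.0275). Slc38a4 read 3306, 2267 and 3383 units in wild-type controls and 4260, 3507 and 4588 units after 8 h, each array above the control array of its number. The difference of the genotypes' 8 h responses was called for 0 members, none of which reached an unadjusted p of 0.05, and for 0.0% of all genes.

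By 72 h of RA, 10 of the 29 tested members rose and 2 fell in wild type, where 16.1% of all genes were called higher and 8.64% lower. In the knockout 7 rose and 3 fell, against 14.8% and 8.26%. Paternally expressed members made up 9 of the 10 that rose in wild type and 6 of the 7 in the knockout. Their median difference was 0.85 in wild type and 0.13 in the knockout over 18 tested members, against 0.06 over all genes in both. Over the 10 tested maternally expressed members the medians were 0.11 and -0.01. H19, which has no probe set of its own, is in neither the counts nor the medians. Markers of extraembryonic endoderm moved with these changes. Of 9 measured, 7 were tested, and all 7 were called higher at 72 h in both genotypes, but a marker could pass the filter on its 72 h signal alone. Afp and Ttr were too dim for the test. Afp was under 50 units on every 72 h array, and so was Ttr on all but the first wild-type one (101 units). Sums over the 9 were 4394 to 4782 units at 72 h against 263 to 1528 in controls. The part of extraembryonic endoderm cells in the members' changes was not tested. The calls of Igf2, Sgce and Ndn in both genotypes, of Dlk1, Plagl1 and Phlda2 in wild type and of Grb10 in the knockout held when any single array was left out.

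**Figure D2:**
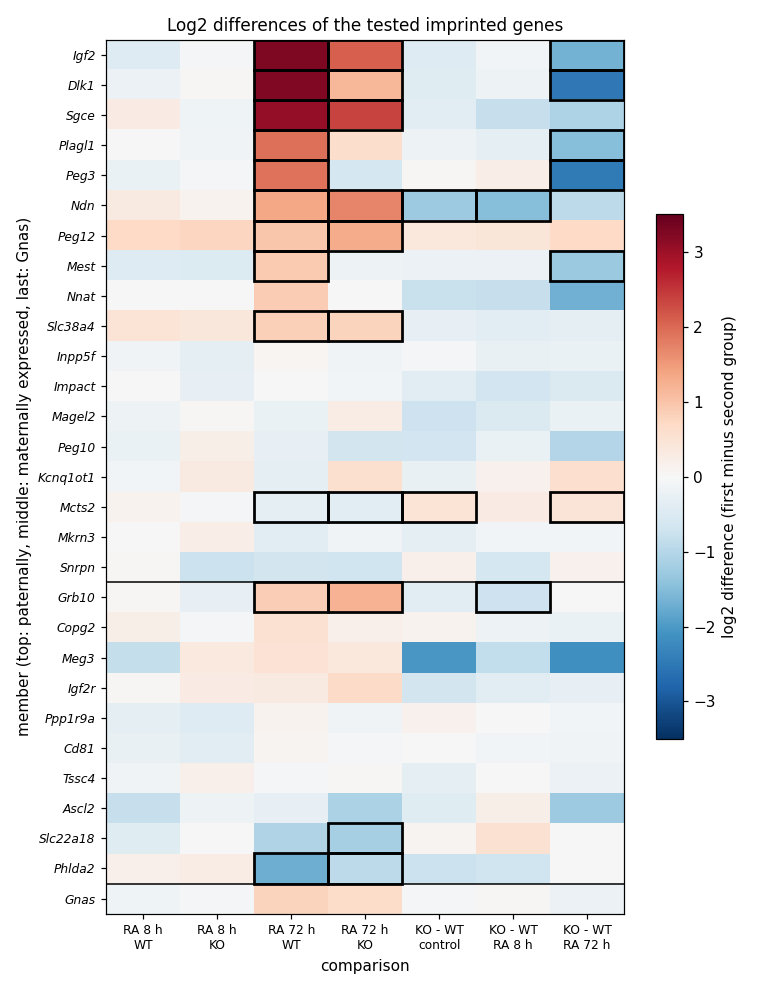
Log2 difference of the 29 tested members (rows, paternally expressed above, maternally expressed next, Gnas last) in 7 comparisons (columns), with red for higher and blue for lower in the first-named group and black frames for limma adjusted p under 0.05. Frames are absent from both 8 h RA columns and most frequent in the 72 h columns, with 12 in wild type and 10 in the knockout.

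Igf2, the paternally expressed fetal growth factor, read 225, 218 and 253 units in wild-type controls and 2308 and 2164 units at 72 h. In the knockout it read 115, 161 and 257 units in controls and 672 and 763 units at 72 h. The groups did not overlap in either genotype, and the knockout arrays at 72 h lay between the controls and the wild-type arrays. It rose by 3.27 ± 0.32 in wild type (limma adjusted p = 3.92e-06) and by 2.09 ± 0.32 in the knockout (0.000267). Its receptor gene Igf2r, maternally expressed, whose product clears the ligand, was not called without a block for the replicate number, with 119 to 613 units over all arrays.

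Dlk1, a paternally expressed transmembrane ligand related to Notch ligands, read 65.1, 82.5 and 71.8 units in wild-type controls and 802 and 597 units at 72 h. The knockout read 3.96, 63.8 and 50.9 units in controls, and 142 and 106 units at 72 h. Signal in the controls was thus near the floor, and the rise at 72 h was the larger one in wild type. Only the 4 arrays at 72 h reached 100 units, so Dlk1 passed the filter on its 72 h signal alone. This limits every 72 h comparison of the gene. The differences were 3.25 ± 0.25 in wild type (limma adjusted p = 5.47e-07) and 1.17 ± 0.25 in the knockout (0.00371). Without the first knockout array at 72 h the latter was 0.96 and no longer called (adjusted p = 0.0615), and with a floor of 100 units it was 0.29 (adjusted p = 0.120).

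Sgce, the paternally expressed gene of epsilon-sarcoglycan, read 82.0, 107 and 104 units in wild-type controls and 652 and 1015 units at 72 h. Knockout controls read 96.6, 23.1 and 89.8 units, and the 72 h arrays 389 and 385 units. No 72 h array overlapped a control, and the gene rose by 3.07 ± 0.38 in wild type (limma adjusted p = 3.22e-05) and by 2.36 ± 0.38 in the knockout (0.000377). Peg10, a retrotransposon-derived gene that shares the Sgce promoter region, was not called in either genotype, with differences of -0.29 ± 0.45 and -0.64 ± 0.45 and overlapping groups.

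Plagl1, a zinc finger transcription factor of an imprinted gene network, read 1120, 1805 and 1539 units in wild-type controls and 4748 and 6505 units at 72 h. In the knockout the controls read 1365, 1146 and 1343 units and the 72 h arrays 2593 and 1484 units. It rose by 1.93 ± 0.28 in wild type (limma adjusted p = 0.000149). The knockout difference of 0.62 ± 0.28 was not called (adjusted p = 0.133), although both 72 h arrays lay above the controls.

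Ndn, the gene of the growth suppressor necdin, read 960, 905 and 575 units in wild-type controls and 1905 and 2128 units at 72 h. Knockout arrays read 439, 246 and 332 units in controls and 1259 and 919 units at 72 h. The gene rose in both, by 1.34 ± 0.25 in wild type (limma adjusted p = 0.00115) and by 1.71 ± 0.25 in the knockout (0.000183). Peg12, which lies in the same chromosome 7 cluster, was faint. It read 38.0, 49.1 and 46.3 units in wild-type controls, all under the floor, against 74.3 and 129 units at 72 h, and rose at least 1.96-fold (adjusted p = 0.0462). That call was lost without any 1 of the wild-type controls (adjusted p of 0.0804 to 0.0850) or the second 72 h array (0.411). Knockout Peg12 read 17.2, 75.6 and 69.3 units in controls and 181 and 137 units at 72 h, a rise of 1.30 ± 0.33 (adjusted p = 0.0115), which was 1.10 and not called without the first 72 h array (adjusted p = 0.114). The other members of this cluster did not move with them, Magel2 differing by -0.24 ± 0.35 and Mkrn3 by -0.37 ± 0.27 in wild type, neither called.

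Slc38a4 read 5663 and 4772 units at 72 h in wild type and 3982 and 4204 units in the knockout, above knockout controls of 2767, 1954 and 2511 units and the wild-type controls given above. It rose by 0.82 ± 0.20 (limma adjusted p = 0.00770) and 0.78 ± 0.20 (0.0119). The wild-type call was lost without the first 72 h array (0.70, adjusted p = 0.0922). The knockout call was lost without either 72 h array or the second control, with adjusted p-values of 0.0517 to 0.0885. Mcts2, a retrogene whose probe set may also read its near-identical parent Mcts1, fell by 0.34 ± 0.11 in wild type (adjusted p = 0.0289) and by 0.37 ± 0.11 in the knockout (0.0219). Its signals were 3432, 3569 and 3440 units in wild-type controls against 2970 and 2540 units at 72 h, and 4807, 5063 and 4736 against 4046 and 3523 units in the knockout. Without the second 72 h array its differences were -0.23 in wild type (adjusted p = 0.291) and -0.27 in the knockout (0.218), and neither was called. The call also went without the first or second control in wild type (0.0544 and 0.0694) and without the second control in the knockout (0.0718).

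Peg3 and Mest rose in wild type on the strength of 1 array. Peg3, a paternally expressed zinc finger gene, read 702, 975 and 365 units in wild-type controls and 1125 and 4885 units at 72 h. The knockout read 854, 596 and 521 units in controls and 476 and 373 units at 72 h, each lower than every control. A dimmer Peg3 probe set overlapped in wild type, with 321 and 2172 units at 72 h against 212, 450 and 339 in controls. It was not called there (1.39 ± 0.64, limma adjusted p = 0.159 with every probe set tested), while a still dimmer one was (2.13 ± 0.58, 0.0179). On the brightest probe set the wild-type difference was 1.90 ± 0.49 (limma adjusted p = 0.0109) and the knockout one -0.61 ± 0.49 (0.423). Without the second 72 h array the wild-type difference was 0.84 and not called (adjusted p = 0.255).

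Mest, a paternally expressed gene of the hydrolase fold family, read 3866, 4096 and 3528 units in wild-type controls and 4185 and 12357 units at 72 h. The knockout read 3770, 3085 and 3194 units in controls and 2851 and 3041 units at 72 h. It rose by 0.91 ± 0.30 in wild type (limma adjusted p = 0.0396) and differed by -0.18 ± 0.30 in the knockout (0.727). Without the second 72 h array the wild-type value was 0.13 (adjusted p = 0.744), and without any 1 of the controls it missed the threshold too (0.0587 to 0.0859).

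The probe set annotated to both Mir675 and H19 read 372 and 9050 units on the same 2 wild-type arrays, against 35.2, 185 and 8.60 units in wild-type controls. After 8 h of RA it read 2.36, 187 and 33.3 units in wild type, so the second array was the highest of each wild-type group. In the knockout it read 43.3, 2.96 and 12.0 units in controls and 79.5 and 55.6 units at 72 h. H19 is a maternally expressed noncoding RNA that hosts the microRNA, and the annotation assigns the probe set to neither gene alone. In a fit with such probe sets kept as features, its wild-type difference was 4.57 ± 0.94 (limma adjusted p = 0.00252). Without the second 72 h array it was 2.27 ± 0.73 and not called (adjusted p = 0.0566), and 2 of the 3 controls were under the floor. Fibroblast markers were also highest, as a sum, on the second wild-type array at 72 h. Col1a1 read 76.8 and 302 units on those arrays and Col1a2 91.3 and 432 units, where no other array exceeded 39.8 and 98.0 units. The summed signal of 8 fibroblast markers was 2871 and 5311 units there and 649 to 1070 units on the other replicated arrays, with Postn under 50 units on both. Most of that sum was Acta2, a smooth muscle actin, at 1859 and 3757 units. Of the 3 markers of the list that were tested, 2 rose at 72 h in wild type and 1 fell. Pdgfrb, higher on the first of these arrays (682 against 400 units), rose in the knockout too, and Thy1 fell to 99.8 and 78.5 units from 329 to 717 in wild-type controls. Their part in the readings of Peg3, Mest and the Mir675 and H19 probe set was not tested.

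Among maternally expressed members, Grb10, an adaptor that restrains insulin and growth factor receptors, read 3129, 2620 and 3964 units in wild-type controls and 6533 and 5137 units at 72 h. In the knockout it read 2188, 2464 and 2780 units, then 5325 and 6203 units. On this probe set, the brightest of the gene, all 4 arrays at 72 h were above all 6 controls. The rises were 0.86 ± 0.19 (limma adjusted p = 0.00341) and 1.22 ± 0.19 (0.000252). The wild-type call was lost without the first 72 h array (0.69, adjusted p = 0.0664). A dimmer Grb10 probe set read 446 and 457 units at 72 h in wild type against 173, 180 and 821 units in controls. It was not called there (0.61 ± 0.84, limma adjusted p = 0.682 with every probe set tested), and its groups overlapped in the knockout too. Another dim one also overlapped in wild type, with 177 and 188 units against 103, 142 and 324.

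Phlda2, a maternally expressed gene that limits placental growth, read 5388, 5946 and 8547 units in wild-type controls and 1553 and 2587 units at 72 h. In the knockout it read 3572, 3530 and 4492 units in controls, and 1810 and 2257 units at 72 h. It fell by 1.70 ± 0.26 in wild type (limma adjusted p = 0.000210) and by 0.93 ± 0.26 in the knockout (0.0169). The levels at 72 h overlapped between genotypes, while all knockout controls lay below all wild-type controls. The knockout call was lost without the first 72 h array (-0.77, adjusted p = 0.151) or the third control (-0.81, 0.0574).

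Slc22a18, a transporter gene next to Phlda2, read 90.5, 114 and 134 units in knockout controls and 49.6 and 22.1 units at 72 h, both under the floor, and fell at least 2.23-fold (limma adjusted p = 0.0399). The call was lost without either 72 h array or without control replicate 2 or 3 (adjusted p of 0.0881 to 0.155). In wild type it read 69.7, 80.5 and 198 units, then 47.6 and 10.4 units, and was not called (adjusted p = 0.0563) unless the LIF labels were exchanged (-1.34, adjusted p = 0.00663) or the replicate number was fitted as a block. Of the 10 tested maternally expressed members, the other 7 were called in neither genotype at 72 h without that block. These were Meg3, Igf2r, Copg2, Ppp1r9a, Cd81, Tssc4 and Ascl2.

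The probe set annotated to both Snurf and Snrpn, 2 genes read from 1 transcript of the Prader-Willi region, was bright. It read 7324, 7749 and 6556 units in wild-type controls and 3623 and 4889 units at 72 h. The knockout read 7751, 5832 and 5098 units, then 3153 and 3797 units. Every 72 h array lay below the controls of its genotype, and the differences were -0.77 ± 0.23 in wild type (limma adjusted p = 0.0218) and -0.83 ± 0.23 in the knockout (0.0170). The wild-type call was lost without the first 72 h array (-0.56, 0.222) or control replicate 1 or 2 (0.0503 and 0.0583), and the knockout one without the first 72 h array (-0.69, 0.149) or the first control (-0.66, 0.0655). The dim Snrpn probe set with that symbol alone was not called (-0.65 ± 0.43 and -0.69 ± 0.43). Gnas, which gives maternal, paternal and biallelic transcripts, read 2940 to 8585 units over all arrays. Its differences of 0.77 ± 0.30 and 0.64 ± 0.30 were not called (adjusted p of 0.0769 and 0.153), and with the replicate number as a block they were (0.80 and 0.67, adjusted p of 0.000225 and 0.00101). That block brought the members called at 72 h to 13 of 29 in each genotype, where 3942 (wild type) and 3747 (knockout) of all 11388 genes were called. Beside Gnas, in wild type it added Slc22a18 (-0.81, adjusted p = 0.0414) and lost Peg12 (0.87, 0.0567), and in the knockout it added Igf2r (1.04, 0.0156) and Ascl2 (-1.15, 0.0430).

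**Figure D3:**
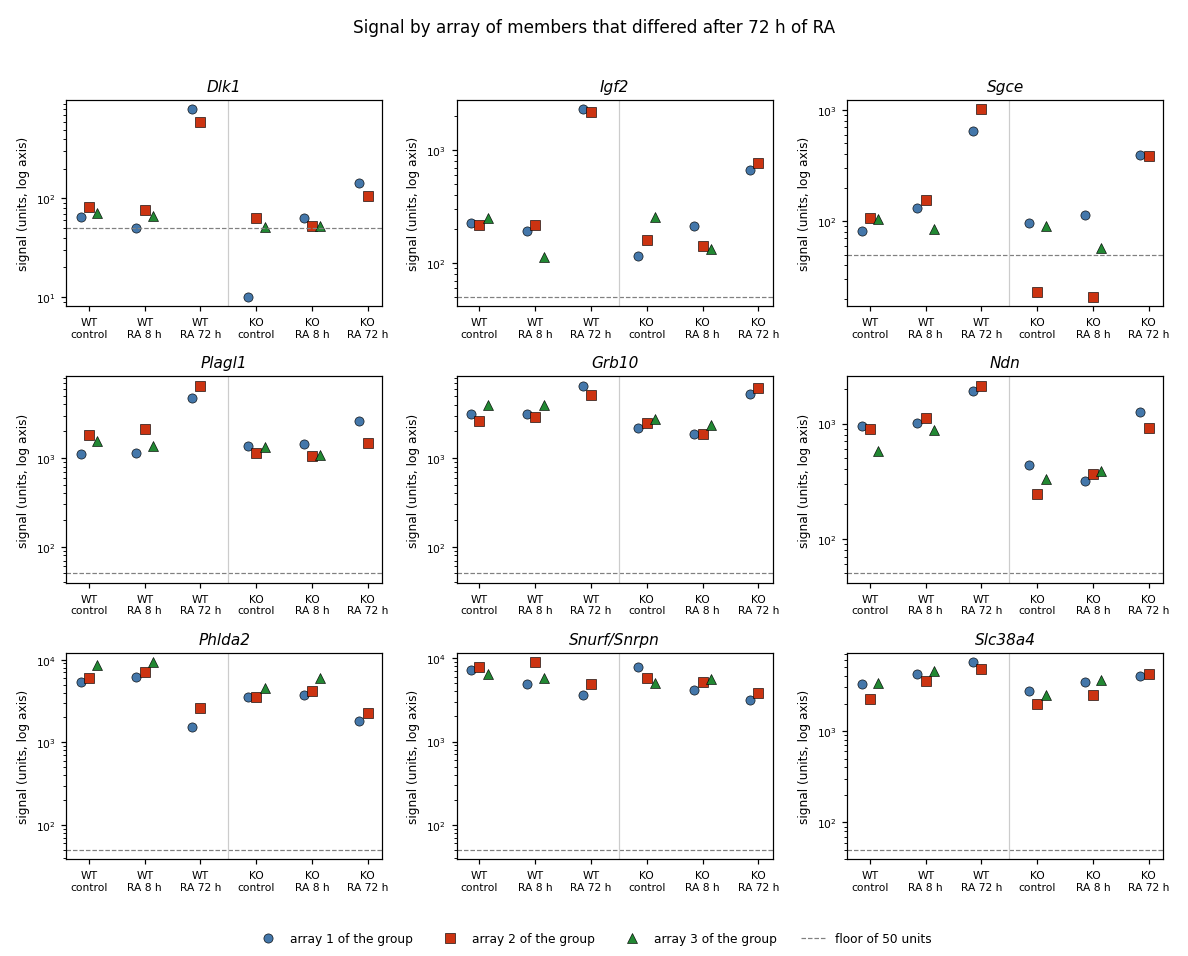
Signal of 9 transcripts on each array (log axis, intensity units; points under 10 units are drawn at 10), by genotype and treatment, with the array of a group shown by marker and the floor of 50 units dashed. Dlk1, Igf2 and Sgce are highest at 72 h in wild type and intermediate at 72 h in the knockout, Grb10 and Ndn rise in both genotypes, and Phlda2 and the Snurf/Snrpn probe set are lowest at 72 h in both.

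When the second array of every wild-type group was left out, 7 members were called at 72 h in wild type, against 11.8% of all 11154 genes then tested in either direction. Dlk1 (3.55), Igf2 (3.27), Sgce (2.82), Plagl1 (1.85), Ndn (1.36), Grb10 (0.89) and Phlda2 (-2.13) kept their calls. Peg3 (1.15, limma adjusted p = 0.0740), Mest (0.18, 0.602), Peg12 (0.57, 0.441), Slc38a4 (0.76, 0.0503) and Mcts2 (-0.21, 0.390) lost theirs. The single remaining wild-type array at 72 h is assumed in this fit to vary like the other groups.

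The genotypes were next compared without RA. Among control cells, 1 member was higher and 1 lower in the knockout out of 29, where 1.83% of all genes were higher and 2.81% lower. Ndn was the lower one, with all 3 knockout arrays (246 to 439 units) below all 3 wild-type arrays (575 to 960 units), a difference of -1.27 ± 0.22 (limma adjusted p = 0.00505). Mcts2 was higher by 0.48 ± 0.10 (0.00937), its knockout controls of 4736 to 5063 units all above the wild-type ones of 3432 to 3569 units. Both calls held when any single array was left out. Only 8 of the 29 members stood above 0, with a median of -0.31 against 0.00 over all genes. Of 7 tested extraembryonic endoderm markers, 3 were also called lower in the knockout, with a median of -1.09 and sums of 263 to 485 units against 585 to 1528 in wild type. After 8 h of RA 2 of 7 were lower, with a median of -0.98 and sums of 537 to 769 against 846 to 2012 units. Their part in the members' differences was not tested. With the replicate number as a block, 4 members were called, against 9.39% of all genes, the added ones being Phlda2 at -0.76 ± 0.11 (adjusted p = 0.000776) and Grb10 at -0.37 ± 0.10 (0.0354).

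After 8 h of RA, 2 of 29 members were lower in the knockout and none was higher, where 2.91% of all genes were lower and 1.7% higher. Ndn read 318, 366 and 388 units in the knockout and 1003, 1124 and 874 units in wild type, a difference of -1.48 ± 0.22 (limma adjusted p = 0.00175) that held without any single array. Grb10 read 1849, 1888 and 2332 units against 3116, 2894 and 3987 units, a difference of -0.71 ± 0.17 (0.0235). The groups did not overlap for either gene on these probe sets, while a dimmer Grb10 probe set overlapped (146 to 491 units in the knockout, 184 to 779 in wild type). The Grb10 call was lost without wild-type replicate 1 or 3 (adjusted p of 0.0535 and 0.0971) or knockout replicate 1 or 2 (0.0898 and 0.0728), which left 1 call. With the replicate number as a block, 6 members were called, against 9.78% of all genes. Impact (-0.67), Mcts2 (0.29), Slc38a4 (-0.38) and Phlda2 (-0.69) were added, with adjusted p-values of 0.0386, 0.0349, 0.0310 and 0.00161.

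At 72 h of RA, 5 of the 29 members were lower in the knockout and 1 was higher, where 2.68% of all genes were lower and 1.39% higher. All 6 were paternally expressed. The median of the 18 tested paternally expressed members was -0.70 against -0.01 over all genes, while that of the 10 maternally expressed ones was -0.16. The probe set of Mir675 and maternally expressed H19 is outside these counts. It was lower in the knockout too, at -4.79 ± 1.03 (limma adjusted p = 0.0142 in the fit with such probe sets). Without the second wild-type array that difference was -2.48. Markers of other cells differed between the genotypes as well. Fibroblast markers summed to 2871 and 5311 units in wild type against 909 and 712 in the knockout, with Acta2 at 158 and 152 units in the latter, and trophoblast markers to 829 and 664 against 336 and 357 units. Most of the trophoblast sum was Eomes, at 551 and 431 against 228 and 237 units, and Elf5 was under 50 units on each of these arrays. Of the 2 trophoblast markers tested, none was called. Of 7 ES cell markers, Utf1 and Tdgf1 were called higher in the knockout, while extraembryonic endoderm sums overlapped (4449 and 4669 against 4394 and 4782 units). Their part in the members' differences was not tested. The knockout and wild-type 72 h arrays already given did not overlap for any of the 6. As these were picked by a test on the same arrays, that separation adds no support. Dlk1 differed by -2.50 ± 0.28 (limma adjusted p = 0.000210), and that call held without any single array. For Igf2 the difference was -1.64 ± 0.35 (0.0134), and without any 1 of its 4 arrays the adjusted p lay between 0.0728 and 0.115. That of Plagl1 was -1.50 ± 0.31 (0.0103), lost without the second wild-type (-1.28, 0.150) or the second knockout array (-1.10, 0.159).

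The dimmer Peg3 probe set was not called between genotypes at 72 h (-2.36 ± 0.71, limma adjusted p = 0.104 with every probe set tested). The still dimmer one was (-2.68 ± 0.63, 0.0338). On its brightest probe set Peg3 differed by -2.48 ± 0.54 (limma adjusted p = 0.0152), and Mest differed by -1.29 ± 0.33 (0.0411). Both rested on the second wild-type array, without which they were -1.42 (0.242) and -0.51 (0.443), and neither was called without either knockout array (0.0765 and 0.139 for Peg3, 0.214 and 0.170 for Mest). Mcts2 was higher by 0.46 ± 0.12 (0.0373) and was not called without any 1 of the 4 arrays (0.0652 to 0.375). With the second array of every wild-type group left out, Dlk1 was the 1 member still called, at -2.71 (adjusted p = 0.00762), where 0.95% of all genes were called. Ndn, lower in the knockout in the other comparisons, differed by -0.90 ± 0.27 here and was not called (0.0828), unless the replicate number was a block (adjusted p = 0.0379).

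The difference of the genotypes' 72 h responses, knockout minus wild type, was called for Dlk1 alone of 29 members, at -2.08 ± 0.36 (limma adjusted p = 0.0209), where 0.316% of all genes were called in that direction. An unadjusted p under 0.05 was reached by 5 members, a count with no share of all genes at that threshold to set beside it. Peg3 (-2.50 ± 0.70), Plagl1 (-1.31 ± 0.40), Igf2 (-1.18 ± 0.45) and Mest (-1.09 ± 0.43) were among them, with adjusted p-values of 0.242, 0.335, 0.637 and 0.674. The Dlk1 call was lost without any of 7 arrays, namely wild-type control replicate 1 or 3, either wild-type 72 h array, knockout control replicate 2 or 3 or the second knockout 72 h array, with values of -2.30 to -1.87. With 32 added before log2 in place of the floor it was -1.55 (adjusted p = 0.497). For Sgce the difference of responses was -0.71 ± 0.53, for Ndn 0.36 ± 0.35 and for Grb10 0.36 ± 0.26, none called.

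**Figure D4:**
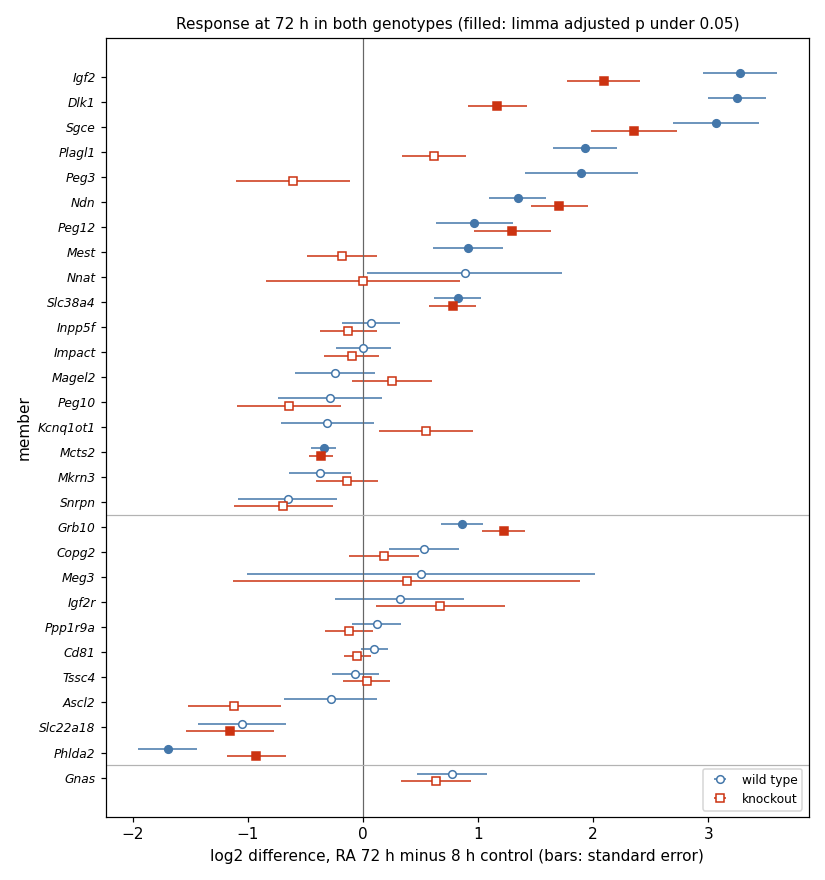
Log2 difference of each tested member, 72 h of RA minus 8 h control, in wild type (circles) and knockout (squares) with standard error bars, filled where the limma adjusted p was under 0.05. The genotypes lie farthest apart for Peg3 and Dlk1, with 1.90 against -0.61 and 3.25 against 1.17, and close together for Slc38a4 and Mcts2.

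Genes that set or keep imprints were looked at as a separate list of 18, of which 16 were tested. At 72 h, 4 fell in wild type and 3 in the knockout, and none rose, with medians of -0.29 and -0.23, where 8.64% and 8.26% of all genes were called lower. Dnmt3l, a cofactor of the de novo DNA methyltransferases, read 6435 to 10662 units in wild-type controls and 2444 and 2741 units at 72 h, a difference of -1.63 ± 0.20 (limma adjusted p = 2.68e-05). In the knockout it fell from 7778 to 11090 units to 2183 and 2550 units, by 1.93 ± 0.20. Trim28, the corepressor that ZFP57 recruits, fell by 0.47 ± 0.11 and 0.35 ± 0.11, and Ehmt2, a histone methyltransferase, by 0.60 ± 0.16 and 0.67 ± 0.16. Tet1, which oxidises methylcytosine, differed by -1.16 ± 0.28 in wild type (0.00634) and by -0.54 ± 0.28 in the knockout (0.180), and the difference of these responses was not called (0.62 ± 0.39). Between genotypes 1 gene of the list was called, Hells, a chromatin remodeller, 0.40 ± 0.10 higher in the knockout after 8 h of RA (0.0344). The Dnmt3l calls held without any single array. Those of Trim28, Ehmt2 and Hells did not, nor did that of Tet1. In wild type, Trim28 (-0.43, 0.0639) and Ehmt2 (-0.45, 0.168) were not called without the second 72 h array, Ehmt2 also not without the first control (0.0534), and Tet1 (-0.82, 0.116) not without the first 72 h array. In the knockout, Ehmt2 was lost without the second 72 h array (0.0820), and Trim28 without either 72 h array or control replicate 1 or 2 (0.0734 to 0.147). The Hells call was lost without wild-type replicate 1 or 2 or knockout replicate 2 or 3 (0.0956 to 0.139).

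A further list held 29 other imprinted genes, of which 16 were tested. Sfmbt2, a paternally expressed Polycomb-related gene, was lower in the knockout in all 3 comparisons of genotypes. It read 2388, 1231 and 1674 units in wild-type controls and 379, 503 and 598 units in knockout controls, a difference of -1.81 ± 0.30 (limma adjusted p = 0.00342), with -1.71 ± 0.30 after 8 h of RA and -1.79 ± 0.37 at 72 h. Cdkn1c, a maternally expressed cell cycle inhibitor, read 3594, 852 and 2133 units in wild-type controls and 889, 343 and 459 units in knockout controls, where the groups overlapped, a difference of -1.85 ± 0.45 (0.0278). It also differed after 8 h of RA (-1.65 ± 0.45, 0.0497), as did Pon2 (-1.51 ± 0.28, 0.00654). By 72 h of RA only Ddc of this list was called against controls, higher by 1.15 ± 0.40 in wild type (0.0464) with overlapping groups. The Pon2 call and those of Sfmbt2 in controls and after 8 h held without any single array. That of Sfmbt2 at 72 h was lost without either wild-type array or the first knockout array (0.0584 to 0.166). Cdkn1c was not called in controls without replicate 1 or 3 of wild type or 2 or 3 of the knockout (0.0733 to 0.134), nor after 8 h without any array but the second wild-type one (0.0937 to 0.173). Ddc was not called without either 72 h array or control replicate 1 or 3 (0.109 to 0.239).

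Ascl2, a maternally expressed trophoblast transcription factor, read at most 22.2 units on both knockout arrays at 72 h, under its controls of 145, 110 and 80.1 units and under the 114 and 128 units of wild type at 72 h. Its differences of -1.12 ± 0.40 from the knockout controls (limma adjusted p = 0.0591) and -1.27 ± 0.44 from wild type (0.139) were not called without the block. A dimmer Ascl2 probe set, near or under the floor, overlapped in the knockout, with 22.8 and 51.0 units at 72 h against 38.4, 32.5 and 58.5 in controls. Its difference there was -0.06 ± 0.37 (limma adjusted p = 0.943 with every probe set tested). Cd81 read 5255, 4805 and 5143 units after 8 h of RA in the knockout, all below the 6545 to 6630 units of its controls, and was not called without the block (adjusted p = 0.129). Over the 18 arrays Cd81 read 4805 to 7649 units, Tssc4 603 to 1036 units, Ppp1r9a 360 to 690 units and Copg2 445 to 1169 units, and limma called none of these maternally expressed genes in any comparison without the block. Of the paternally expressed members, Impact (1099 to 2686 units), Inpp5f (285 to 616 units), Kcnq1ot1 (180 to 494 units), Mkrn3 (128 to 283 units) and Magel2 (30.5 to 125 units) were likewise not called without it. Impact read 2490, 2686 and 2225 units on the second wild-type arrays, the highest of each group.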

How the data were processed

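Total RNA was read on 18 arrays, with cRNA made by a 3' amplification kit and labelled with biotin, per the labels' protocols. The authors deposited linear signal intensity values, 1 per probe set and array, which per the submitters' processing notes came from MAS5, its version not given in the sources used here. Arrays were brought to a common trimmed mean of 500 (2% at each end) and floored at 50 units before log2, which put 41.6% to 48.3% of an array's probe sets at the floor. Symbols came from the platform annotation, in which 34958 probe sets had 1 symbol, 932 several and 9211 were not listed. The probe set with the highest mean log2 stood for a gene. Genes with at least 2 arrays reaching 100 units (11388) entered 1 fit of the 16 replicated arrays (limma 3.58.1, lmFit and eBayes with an intensity trend, R 4.3.3), which left 10 residual degrees of freedom. P-values were two-sided and adjusted by Benjamini-Hochberg over every gene in the fit, with a threshold of 0.05. The fit was tested on simulated data. Arrays have no count depth, and their number limits the precision, with a median standard error of 0.19 for 3 arrays against 3 and 0.24 for 2 against 2.

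Members, gene lists and alternatives were chosen with earlier results of these data known. Values per array are given for members called in at least 1 comparison, and genes named outside that rule were chosen after their values were seen. Deviations from group means had correlations of 0.13 to 0.50 over 18 same-numbered pairs of compared groups (-0.37 to 0.22 over 34 pairs of unlike number). Such deviations cancel within a group, and with 2 arrays at 72 h they mirror each other. The second wild-type control thus gave 0.365 with the second wild-type 72 h array and -0.365 with the first. The unlike pairs therefore follow in part from the like ones, and pairs share arrays. With that limit, the replicate number was used as a block in an alternative fit. The numbers 1 and 2 of wild-type controls and 8 h arrays come from accession order and not from the titles. Leaving out the second wild-type arrays, keeping probe sets of several symbols as features, and refitting these and the supporting lists without single arrays, were added after the data were seen.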

Additional observations from a re-analysis of the deposited data

Results flagged for a closer look

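The difference between genotypes of the 72 h response of Dlk1, -2.08 in knockout minus wild type on the log2 scale, was past the threshold of its own test (limma adjusted p = 0.0209). On the Peg3 probe set that stood for the gene, both wild-type arrays at 72 h were above every control and both knockout arrays were below. The responses differed by -2.50, which was not past the threshold (adjusted p = 0.242). Mest showed the same opposite order, with a difference of -1.09 (adjusted p = 0.674). For Peg3 and Mest the wild-type calls were lost without the second wild-type array at 72 h.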

How the results depend on the processing

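Over the alternatives run, the 33 single-gene results gave 476 values, of which 383 kept their call, 93 lost it and 0 reversed direction, and 13 results kept their call under every alternative. Under the replicate block, the count of members called was 1 instead of 0 at 8 h in each genotype, 4 instead of 2 between control genotypes and 6 instead of 2 between genotypes after 8 h of RA. Other counts of calls stayed within 1.5 times, with 13 for the 72 h response in each genotype, against 3942 (wild type) and 3747 (knockout) of all 11388 genes. Peg12 lost its call there in wild type, and Slc22a18, Gnas, Igf2r and Ascl2 gained calls in 1 or both genotypes. With only the compared groups fitted, 1 member was called between control genotypes, against 168 of all 10362 genes. Without a filter on dim genes, 1 was called between genotypes after 8 h, against 392 of all 18194 genes. The interaction at 72 h had 0 calls with 32 added in place of the floor, with a filter of 2 arrays reaching 200, with only the compared groups fitted, or without the second wild-type arrays. Leaving those arrays out gave 7 calls for the 72 h response in wild type and 1 between genotypes at 72 h. Leaving out single arrays in turn gave 5 to 10 calls for the 72 h response in the knockout, 1 to 2 between genotypes at 8 h, 1 to 4 at 72 h and 0 to 2 for the interaction at 72 h. Fewer arrays leave fewer degrees of freedom, and other causes were not tested. Signal near the floor limits Dlk1, Peg12, Sgce and Slc22a18 in controls or at 72 h.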
